A study of Schizosaccharomyces pombe with 9 samples.

Results

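The transcriptome of fission yeast (Schizosaccharomyces pombe) lacking all 3 *ecl* genes was compared with that of the wild type (WT) in logarithmically growing cells. The comparison took 6 of the 9 poly(A)+ RNA-seq libraries of the series, 3 of *ecl123*Δ and 3 of WT, and every gene that passed a low-count filter. In *ecl123*Δ, hygMX replaced the *ecl1* ORF, natMX that of *ecl2* and kanMX that of *ecl3*. The WT carried none of these cassettes. Both strains were haploid M cells (h-), sampled in vegetative growth in the rich medium YES at 30 °C. The triple mutant was 1 strain obtained by serial crosses and random spore analysis, so other differences that this strain may carry cannot be told apart from the deletions.

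The Ecl proteins are small proteins first known as extenders of chronological lifespan, the time that nondividing cells stay viable. In fission yeast, mating starts when nutrients run out: the transcription factor Ste11 turns on genes of sexual differentiation, M cells export the lipid-modified peptide M-factor, and the receptor for the partner's P-factor signals through a G protein and a MAP kinase cascade back to Ste11. In rich medium the pathway is normally held low.

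Reads at the *ecl* genes were compared first. The weakly expressed *ecl3* had 0, 0 and 1 raw counts in *ecl123*Δ against 23, 15 and 42 in the WT, a ratio of 0.0125 (95% exact interval 0.000313 to 0.0717, counting error only). Normalized read counts of *ecl1* were 2720, 2991 and 3400 in *ecl123*Δ and 500, 474 and 387 in the WT, a log2 fold change of 2.74 (standard error 0.13, edgeR adjusted p = 0.000219). Those of *ecl2* were 2148, 1985 and 2254 in *ecl123*Δ and 1689, 1480 and 1450 in the WT, a log2 fold change of 0.47 (standard error 0.10, edgeR adjusted p = 0.0356). For each of the 3 genes the *ecl123*Δ libraries did not overlap those of the WT. The cassettes replaced ORFs, whereas reads were counted over whole annotated exons. Where the reads of *ecl1* and *ecl2* fell was not examined, so their counts do not check the deletion of these 2 ORFs. The origin of the higher *ecl1* and *ecl2* counts was not tested. Of the nearest coding genes around the 3 loci, *pho84* beside *ecl3* was lower (log2 fold change -0.87, edgeR adjusted p = 0.0150). The others did not pass: SPBC8E4.03 beside *ecl3* (0.23), SPCC70.04c (-0.42) and *nnk1* (0.09) beside *ecl1*, and *dic1* (0.02) and SPBP35G2.17 (-0.79, adjusted p = 0.0606) beside *ecl2*.

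The libraries held 24797503 to 30639474 counts in *ecl123*Δ and 23254907 to 34857589 in the WT, and replicates differed by more than sampling noise. The library of *ecl123*Δ replicate 3 stood apart: its squared difference from replicates 1 and 2, averaged over genes and scaled so that counting noise alone would give 1, was 243 and 214, against 36.4 between those 2 and 7.64 to 27.6 between WT replicates. The snRNA and snoRNA genes took 0.0234% of its counts, against 0.0411% to 0.0515% elsewhere, and the 142 cytosolic ribosomal protein genes lay at a median log2 of -0.49 relative to the WT mean, against 0.16 and 0.07 in *ecl123*Δ replicates 1 and 2. Its noncoding genes lay at -0.36, against 0.13 and 0.12. A gene list's count is therefore also given without this library where it moved by more than 1 gene and over 1.5 times, and its median where the sign turned. Markers of mating type fitted the labels in part. The M-factor gene *mfm2* had 694 to 947 normalized read counts in *ecl123*Δ and 2058 to 2463 in the WT. The P-cell genes *map2* and *map3* stayed between 97.4 and 326 in all 6 libraries, and the M-cell gene *sxa2* also lay above them. Other M-cell genes did not: *mfm1* had 8.60 to 19.2 in *ecl123*Δ and 86.6 to 130 in the WT, and *mam2* had 115 to 137 in *ecl123*Δ. The meiotic genes *mei4*, *spo5*, *spo6*, *isp3* and *meu14* had log2 fold changes of -0.53 to 0.01 with edgeR adjusted p values of 0.324 to 0.990.

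Of 5004 coding genes tested, 19 were called higher (0.38%) and 62 lower (1.24%) in *ecl123*Δ. A call needed 3 things: an adjusted p (Benjamini-Hochberg, edgeR quasi-likelihood) no higher than 0.05, a 2-fold or larger change, and normalized read counts averaging 100 or more in whichever strain was higher. Of these, 4 higher and 14 lower genes changed by at least 4-fold. Both the 19 and the 4 higher genes include *ecl1*, whose ORF was replaced in this strain. Without the fold and count limits, 91 coding genes (1.82%) were higher and 182 (3.64%) lower, with *ecl1* and *ecl2* among the higher and *ecl3* among the lower. The shares over all 5004 coding genes are the background for the gene lists that follow. The corresponding shares were 9.19% and 9.25% at an unadjusted p under 0.05, 4.94% and 5.56% by the adjusted p of DESeq2, and 7.03% and 9.53% in edgeR without *ecl123*Δ replicate 3. Of 1209 noncoding genes, 8 were called higher (0.662%) and 29 lower (2.4%), or 22 (1.82%) and 37 (3.06%) by adjusted p alone. The balance by adjusted p turned without *ecl123*Δ replicate 3, with 79 noncoding genes higher (6.53%) and 59 lower (4.88%). The median log2 fold change of noncoding genes was then 0.119, against -0.0036 with that library. All 118 called genes had 3 *ecl123*Δ libraries beyond the 3 WT libraries, where 12.8% of all coding genes lay above the WT libraries and 13.7% below them without overlap (of noncoding genes, 133 of 1209 above and 160, or 13.2%, below). Each of the 118 stayed past the adjusted p without *ecl123*Δ replicate 3, a fit in which more coding genes passed in both directions. Leaving out any other single library kept 68 to 111 of the 118, and 46 stayed with all 9 libraries of the series in the fit. An exact two-sided permutation test of a single gene can reach no p below 0.1 with this number of libraries, so p-values come from the fit across genes.

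**Figure D1:**
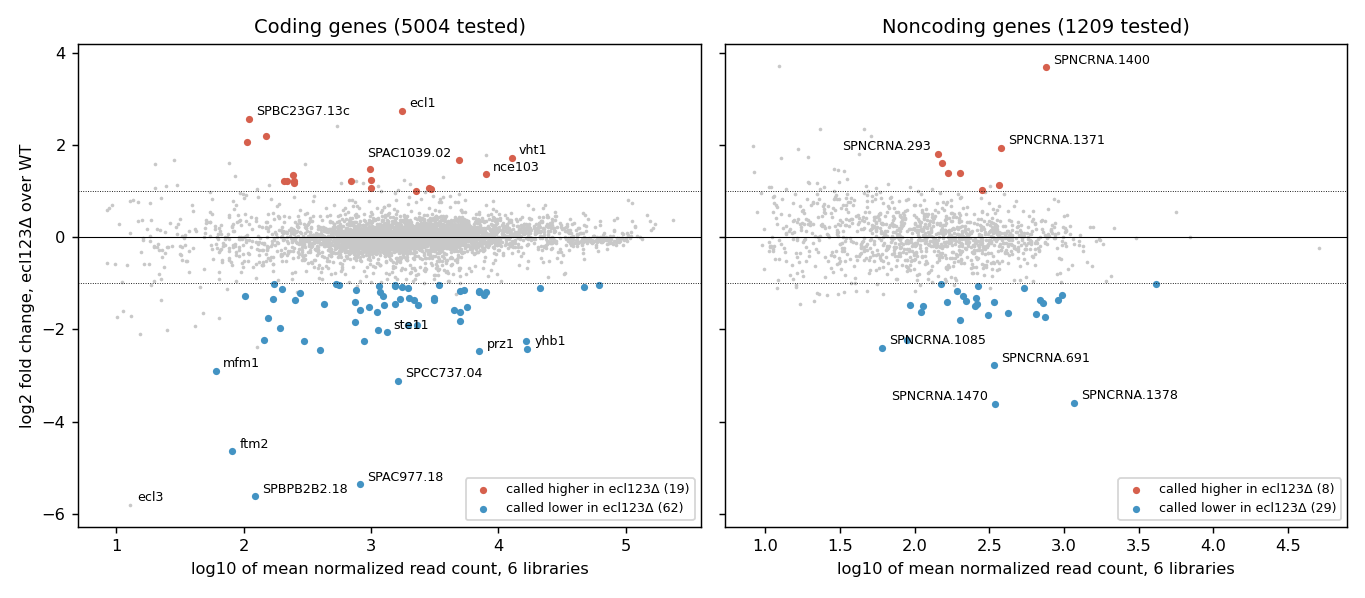
Log2 fold change of *ecl123*Δ over WT (y axis) against the log10 mean normalized read count of the 6 libraries (x axis) for 5004 coding genes (left) and 1209 noncoding genes (right), with dotted lines at 2-fold. Among coding genes 62 called genes (blue) lie below 0 and 19 (red) above it, and the noncoding gene farthest above 0 among those called, SPNCRNA.1400, lies beside *ecl2*.

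Genes of the pheromone pathway were lower in *ecl123*Δ, from its transcription factor to the ligands, the receptor and the MAP kinase. For *ste11*, the transcription factor gene, normalized read counts were 525, 491 and 520 in *ecl123*Δ and 2509, 2038 and 1874 in the WT, a log2 fold change of -2.06 (standard error 0.12, edgeR adjusted p = 0.000355). The mutant libraries lay close together and all below the lowest WT library. As the RNA came from whole cultures, fewer cells that express a gene and less RNA per cell cannot be told apart.

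Among the ligand genes, *mfm1*, which encodes an M-factor precursor, had normalized read counts of 19.2, 14.7 and 8.60 in *ecl123*Δ and 86.6, 130 and 102 in the WT, a log2 fold change of -2.90 (standard error 0.35, edgeR adjusted p = 0.00494). The second precursor gene, *mfm2*, had 947, 858 and 694 in *ecl123*Δ against 2058, 2463 and 2286 in the WT, a log2 fold change of -1.45 (adjusted p = 0.00171). The third, *mfm3*, was weakly expressed and did not pass (log2 fold change -0.74, adjusted p = 0.196), although its 3 mutant libraries lay below those of the WT. Also lower were *mam1*, the ABC transporter gene of M-factor, at a log2 fold change of -1.11, *mam4*, whose product methylates M-factor, at -0.66, and *krp1*, a kexin protease gene of the secretory pathway, at -1.15 (edgeR adjusted p = 0.00641, 0.0181 and 0.00171). In no case did a mutant library reach the lowest WT library.

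On the receiving side, the P-factor receptor gene *mam2* had normalized read counts of 115, 119 and 137 in *ecl123*Δ and 508, 669 and 840 in the WT, a log2 fold change of -2.44 (standard error 0.21, edgeR adjusted p = 0.00149). Its G protein subunit gene *gpa1* was at -1.09 and *rgs1*, which encodes a negative regulator of that G protein, at -1.18. An inhibitor of the pathway was thus lower along with its activators. The MAP kinase gene *spk1* had 833, 761 and 863 in *ecl123*Δ against 2819, 3134 and 3232 in the WT, a log2 fold change of -1.90 (adjusted p = 0.000219), while *byr1*, which encodes the MAP kinase kinase above it, was at -0.49 (adjusted p = 0.0191). The kinase adaptor gene *ste4* was at -1.28, the MADS-box factor gene *map1* at -1.45 and *ste6*, which encodes a Ras exchange factor, at -0.96.

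All 9 mating genes that the study names (*ste11*, *mfm1*, *mfm2*, *mam1*, *mam2*, *spk1*, *ste4*, *map1* and *rgs1*) were called lower, with a median log2 fold change of -1.45, against 0.00 for all coding genes. The study chose these 9 partly on the same libraries, so their count is not independent evidence of a direction. Of 20 other tested pheromone and mating genes (24 listed), 6 were lower by adjusted p (*gpa1*, *ste6*, *sxa1*, *mam4*, *byr1* and *dni2*), with a median of -0.19. Without *ecl123*Δ replicate 3 this became 9 of 20 with a median of -0.29. The *sxa2* gene, whose product degrades P-factor, had 527 to 717 normalized read counts in *ecl123*Δ and 582 to 710 in the WT (log2 fold change -0.04). Among 33 tested genes of meiotic entry and middle meiosis, 2 were lower, *rec10* (-0.76) and *meu10* (-1.02), and 24 of the 33 had negative values. Of these meiotic genes, 5 were lower without *ecl123*Δ replicate 3.

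**Figure D2:**
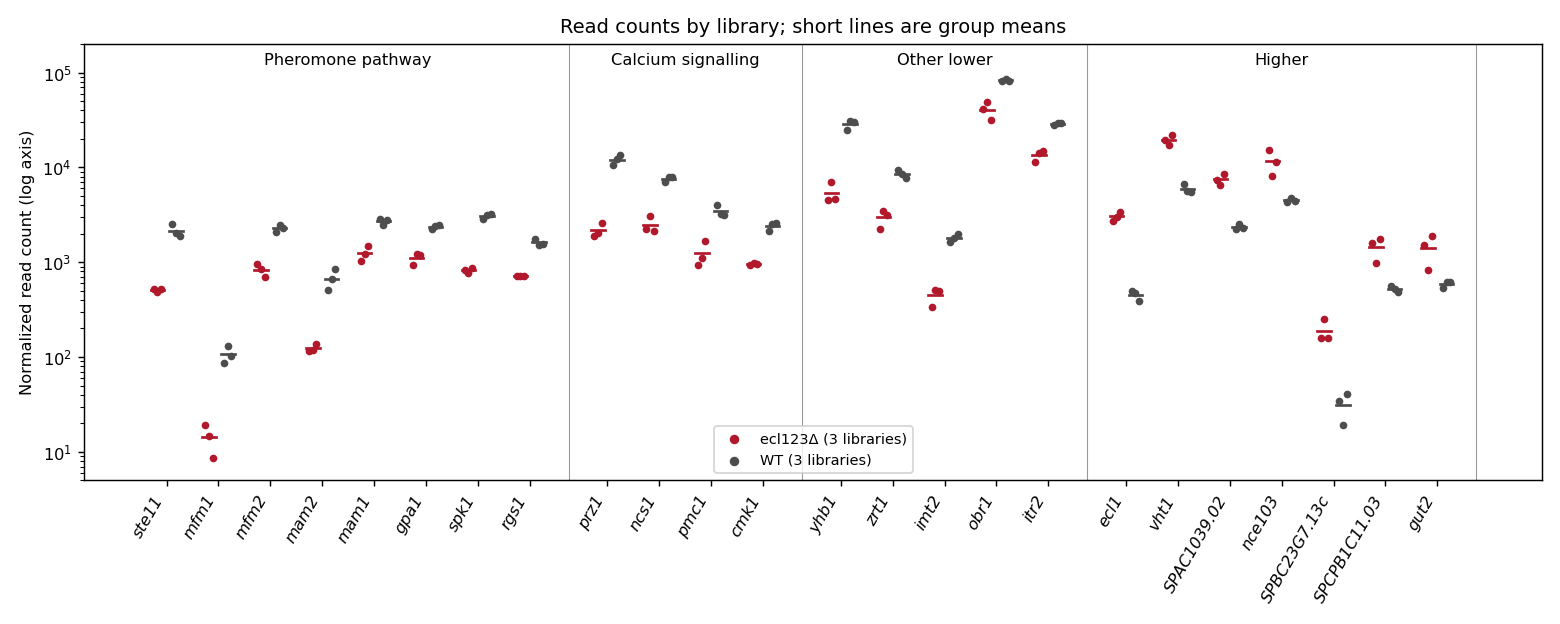
Normalized read counts on a log axis for each of the 3 *ecl123*Δ (red, left) and 3 WT (grey, right) libraries at 24 genes, with group means as short lines. All genes drawn were picked from the called genes, none of which has overlapping groups, so the gaps between the points follow from that choice. Of all coding genes, 12.8% lay above the WT libraries and 13.7% below them without overlap. The *ste11* points lie at 491 to 525 in *ecl123*Δ and 1874 to 2509 in the WT.

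Among genes of calcium signalling, 4 of 22 tested were lower in *ecl123*Δ. Prz1 is the transcription factor that the calcium-dependent phosphatase calcineurin activates in fission yeast. Normalized read counts of *prz1* were 1894, 2016 and 2568 in *ecl123*Δ and 10532, 12117 and 13455 in the WT, a log2 fold change of -2.48 (standard error 0.14, edgeR adjusted p = 0.000355). Lower with it were *ncs1*, a calcium sensor gene, with 2247, 3050 and 2132 in *ecl123*Δ against 6974, 8000 and 7827 in the WT (-1.62), *pmc1*, the vacuolar calcium pump gene, with 937, 1113 and 1675 against 4017, 3211 and 3151 (-1.48), and *cmk1*, which encodes a calmodulin-dependent kinase, with 936, 980 and 954 against 2157, 2547 and 2587 (-1.35). All 4 were called, while 10 of the 22 calcium and calcineurin genes had positive log2 fold changes and the list median was -0.05. Without *ecl123*Δ replicate 3, 7 were lower and the median was -0.28. When the 3 libraries of the series' other mutant, *ecl3*Δ, shared the fit, the estimates of the 4 genes stayed, but the edgeR adjusted p values of *prz1*, *pmc1* and *cmk1* were 0.0739, 0.0948 and 0.0588 and only *ncs1* passed (0.0423).

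Among genes annotated as protein kinases, their subunits or adaptors, 10 of 104 were lower and none higher by adjusted p in edgeR, with a median of 0.00. At an unadjusted p under 0.05, 6 were higher and 15 lower, and DESeq2 put 2 higher and 13 lower past its adjusted p. Leaving out *ecl123*Δ replicate 3 gave 3 higher and 23 lower kinase genes and a median of -0.12. The called members were *spk1*, *ste4*, *cmk1*, *ppk33* (-1.04) and *cgs1* (-1.21), the last of which encodes the regulatory subunit of the cAMP-dependent kinase and had normalized read counts of 159, 146 and 199 in *ecl123*Δ against 476, 349 and 348 in the WT. Of 119 transcription factor genes tested, the 4 that passed were all lower: *ste11*, *prz1*, *map1* and *mbx1* (-0.89), which like *map1* encodes a MADS-box factor. These 4 were 3.36% of the list, against 3.64% of all coding genes lower. With *ecl123*Δ replicate 3 left out, 20 of the 119 were lower, which was 16.8% against 9.53% of all coding genes, with a list median of -0.10.

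Genes of glycosylation and of the cell surface were tallied next. In Golgi glycosylation, *imt2*, which encodes a mannosyltransferase of sphingolipids, had normalized read counts of 336, 509 and 493 in *ecl123*Δ and 1644, 1782 and 1994 in the WT, a log2 fold change of -2.02 (standard error 0.17, edgeR adjusted p = 0.00139). Its paralog *imt1* was at -1.37 and the protein mannosyltransferase gene *omh1* at -1.19. In all, 6 of 37 tested glycosyltransferase genes were lower, the others being *gmh2* (-0.80), *omh5* (-0.48) and *alg2* (-0.35), with a list median of -0.07. Without *ecl123*Δ replicate 3, 12 were lower and the median was -0.15.

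In the cell wall list, *gas2*, a glucanosyltransferase gene (-0.80), *bgl2*, a glucanase gene (-0.79), and *rho1*, the GTPase gene of glucan synthesis (-0.46), were lower among 35 tested genes. Here *ecl123*Δ replicate 3 decided the count: without it 12 members were lower and 1 higher, and the list median was -0.25 rather than -0.05. Among flocculins and adhesins, 3 of 7 were higher: *pfl7*, which encodes a DIPSY-family glycoprotein, at 402, 312 and 344 normalized read counts in *ecl123*Δ against 149, 157 and 109 in the WT (log2 fold change 1.36, edgeR adjusted p = 0.0104), and the But2-family genes SPAC27D7.09c (1.22) and SPAC27D7.11c (0.89). The RefSeq genome repeats 70.2% of the 51-base windows of SPAC27D7.09c, so its reads could be shared with copies. The adhesin median was -0.05 without *ecl123*Δ replicate 3, against 0.19 with it.

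Membrane transporters moved in both directions, with 14 of 181 tested genes higher and 12 lower by adjusted p, 5 and 7 of them called. The balance turned without *ecl123*Δ replicate 3, with 19 higher and 33 lower. The biotin transporter gene *vht1* had normalized read counts of 19607, 17394 and 21875 in *ecl123*Δ and 6611, 5687 and 5444 in the WT, a log2 fold change of 1.73 (standard error 0.12, edgeR adjusted p = 0.000657). A urea transporter gene, SPBC23G7.13c, had 160, 252 and 159 in *ecl123*Δ against 34.2, 19.3 and 40.4 in the WT (2.57). The zinc importer gene *zrt1* went the other way, with 2219, 3504 and 3157 in *ecl123*Δ against 9324, 8442 and 7726 in the WT (-1.52, adjusted p = 0.00382). Lower transporter genes also included *itr2* for inositol (-1.10), *sul2* for sulfate (-1.07), *mfs1* (-1.32) and the permease gene SPCPB1C11.02 (-2.25). Its neighbour on the chromosome, SPCPB1C11.03, annotated as a cysteine transporter, was higher (1.48), with 1590, 983 and 1745 in *ecl123*Δ against 558, 516 and 479 in the WT.

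In nitrogen and amino acid uptake, 5 of 24 were higher, namely SPBC23G7.13c, SPCPB1C11.03, the permease gene *nrg1* (1.22), *aca1*, whose product acetylates a proline analog (1.07), and *gdh2*, a glutamate dehydrogenase gene (0.84). The permease genes *meu22* (-1.13) and *isp5* (-0.89) were lower, and the list median was 0.28, or 0.22 without *ecl123*Δ replicate 3. These values depend on membership. The list held the enzyme genes *aca1* and *gdh2* but not SPCPB1C11.02, which is annotated as an amino-acid permease and was called lower (-2.25). Among 20 phosphate acquisition genes, *pho84*, the phosphate transporter gene, was lower, with 14004, 19493 and 18710 in *ecl123*Δ against 33941, 31277 and 29937 in the WT (log2 fold change -0.87, standard error 0.14). The acid phosphatase gene *pho1* had 18226, 25614 and 18194 in *ecl123*Δ against 31297, 30315 and 27141 in the WT without passing in edgeR (-0.52, adjusted p = 0.115), and *tgp1*, a glycerophosphodiester transporter gene, was at -0.06. Both *pho84* and *pho1* were below 2-fold, and *pho84* passed in 10 of 15 alternative fits, counting a planned setting that proved to be the reported fit itself. In contrast SPAC1039.02, annotated as a phosphatase, had 7440, 6475 and 8490 in *ecl123*Δ against 2217, 2507 and 2311 in the WT (1.67, adjusted p = 0.000657), and *pho841*, a further phosphate transporter gene, was at 0.66. Without *ecl123*Δ replicate 3, 3 phosphate genes were lower and the list median was -0.04, against 0.04 with it.

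Metal lists were mixed. Of 24 tested genes in the iron list, the 1 higher member was *lys4* (0.63), which is annotated as a homocitrate synthase without mention of iron. Lower were *sib2*, of siderophore synthesis (-0.54), and *arh1*, of iron-sulfur assembly (-0.40). The iron transporter gene *str1* averaged 455 in *ecl123*Δ and 151 in the WT but missed the threshold (1.59, edgeR adjusted p = 0.0564). Of 11 zinc genes only *zrt1* passed. In edgeR none of 12 copper genes passed, with 1 at an unadjusted p under 0.05 and none in DESeq2. In the sulfur list *met17*, the homocysteine synthase gene, was higher (0.77) and *sul2* lower among 20 genes, and without *ecl123*Δ replicate 3, 3 were higher and the median was -0.05, against 0.06 with it. Of 20 vitamin genes *vht1* passed, and 5 passed as higher by DESeq2 or without *ecl123*Δ replicate 3. All 3 *ecl123*Δ libraries lay above the WT for 10 of the 20 vitamin genes, where 12.8% of all coding genes did so.

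Defence and stress genes that passed went in both directions. By adjusted p, 12% of the Pap1 and oxidative defence list was lower, against 3.64% of all coding genes. In the stress list 6.82% was higher, against 1.82% of all coding genes, and 2.27% lower. These differences were not tested. For *yhb1*, which encodes the nitric oxide dioxygenase, normalized read counts were 4516, 6927 and 4604 in *ecl123*Δ and 24801, 30593 and 30131 in the WT, a log2 fold change of -2.41 (standard error 0.18, edgeR adjusted p = 0.00102). In the list of Pap1 targets and oxidative defence it was lower with *obr1*, a quinone reductase gene (41197, 48474 and 31202 against 80890, 85260 and 81105, -1.03), and *gst3* (-0.82), 3 of 25 members. Of 44 stress genes, *gut2*, the mitochondrial glycerol-3-phosphate dehydrogenase gene (1.25), *sro1* (0.99) and *rds1* (0.60) were higher and *psp3* (-0.70) lower. The stress list had a median of 0.20 and lay at 0.52 in *ecl123*Δ replicate 3, against 0.23 and -0.10 in replicates 1 and 2, and without replicate 3 its median was 0.05 and 5 members were higher. Of 22 tested hexose transport and glucose-repressed genes and of 13 trehalose and glycerol genes, the same 2 passed, *gut2* higher and *dak2*, a dihydroxyacetone kinase gene, lower (-0.65). Without *ecl123*Δ replicate 3, 5 of the 22 were lower. Of 21 genes of the TCA cycle, *cit1*, the citrate synthase gene, was higher (0.41), and the list median was -0.01 without replicate 3 and 0.04 with it. The carbonic anhydrase gene *nce103*, outside these lists, had 15312, 8137 and 11267 in *ecl123*Δ against 4288, 4800 and 4376 in the WT (1.37, adjusted p = 0.0124).

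**Figure D3:**
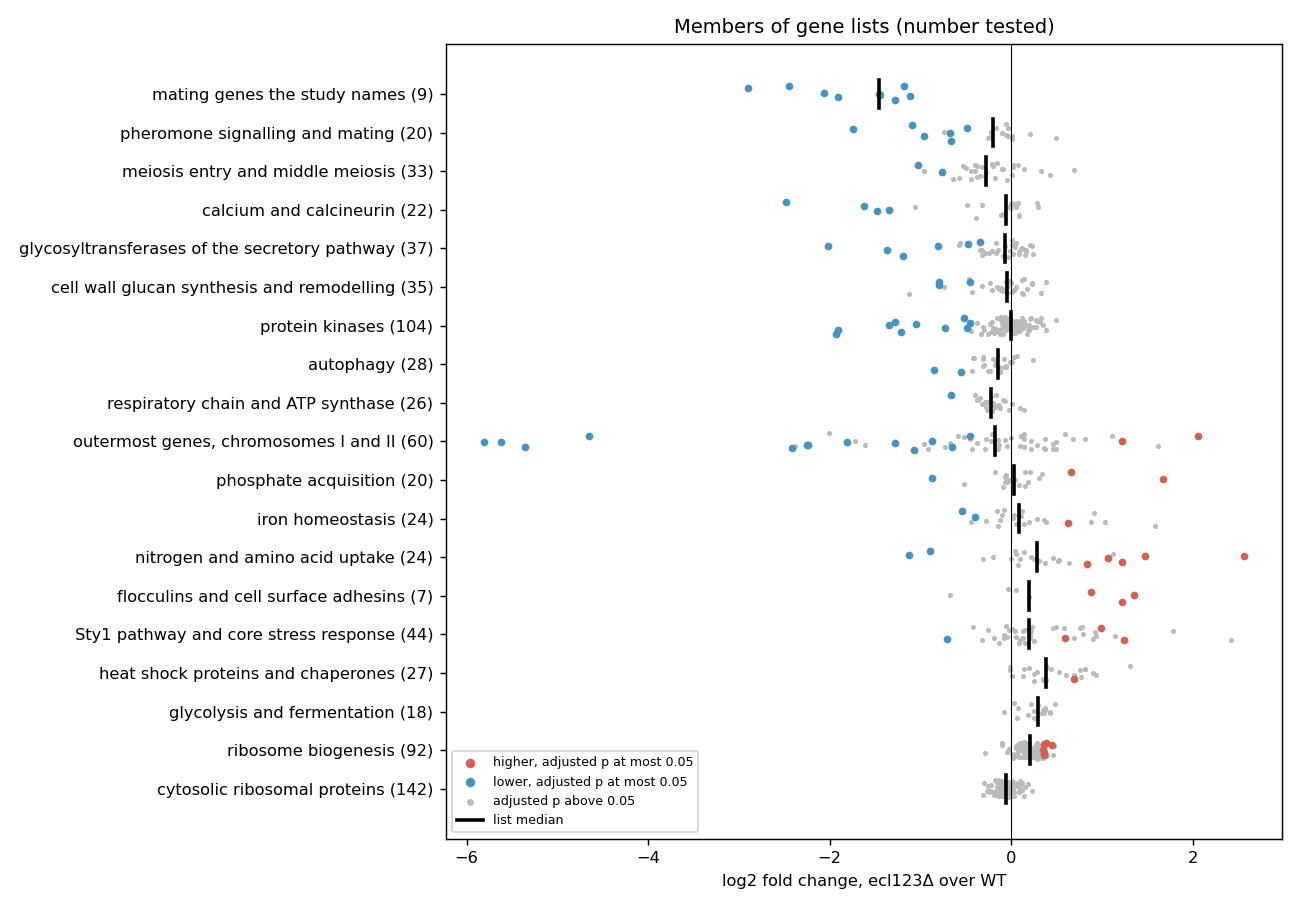
Log2 fold change of *ecl123*Δ over WT for each member of 19 gene lists (number tested in parentheses), with members past an adjusted p of 0.05 in red (higher) or blue (lower), other members in grey and the list median as a black line. The 9 mating genes, which the study chose partly on the same libraries, lie wholly below 0 with a median of -1.45. Ribosome biogenesis genes crowd just above 0 at a median of 0.21.

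Growth-related lists moved by small amounts. Of 92 ribosome biogenesis genes, 87 had positive log2 fold changes, with a median of 0.21, and 6 passed: *imp4* (0.45), *nop12* (0.39), *utp18* and *mak5* (0.37 each), *brx1* (0.36) and *ytm1* (0.35). For *imp4*, which encodes a part of the U3 processome, normalized read counts were 3838, 3638 and 3544 in *ecl123*Δ and 2582, 2622 and 2871 in the WT. The list lay at 0.19, 0.24 and 0.24 in the 3 *ecl123*Δ libraries, and without replicate 3 the members higher by adjusted p were 41 of 92, 44.6% against 7.03% of all coding genes. Cytosolic ribosomal protein genes did not follow: of 142, none passed in edgeR in either direction and none had an unadjusted p under 0.05, with a median of -0.05 and fitted values between -0.31 and 0.23. Their median turned to 0.12 without *ecl123*Δ replicate 3, where 4 were higher by adjusted p.

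Heat shock and chaperone genes had positive values in 25 of 27 cases (median 0.39), but 1 passed, the cyclophilin gene *wis2* (0.69, edgeR adjusted p = 0.0335). *hsp90* averaged 132870 in *ecl123*Δ and 75426 in the WT (0.82, adjusted p = 0.0918). Of the 27, 16 were higher at an unadjusted p under 0.05 and 10 by DESeq2, and without *ecl123*Δ replicate 3, 7 were higher at the same median. Likewise 17 of 18 glycolysis and fermentation genes were positive (median 0.30). In edgeR none of them passed, 8 had an unadjusted p under 0.05, and DESeq2 put 6 past its adjusted p, as did edgeR without replicate 3. Respiratory chain genes lay below 0 in 23 of 26 cases (median -0.22), and *rcf2* (-0.66) passed. This list lay at -0.44 in *ecl123*Δ replicate 3, against -0.12 and -0.17 in replicates 1 and 2, and 5 members were lower without replicate 3. Autophagy genes were negative in 24 of 28 (median -0.15), and *atg22* (-0.85) and *atg4* (-0.55) passed, or 5 members without replicate 3. In edgeR no member passed among 33 aminoacyl tRNA synthetase, 35 proteasome, 75 mitochondrial ribosomal protein, 11 histone and 24 *wtf* genes. At an unadjusted p under 0.05 these lists held 0, 0, 4, 2 and 5 members, and by DESeq2 0, 0, 0, 0 and 1.

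Lipid genes gave 4 lower members of 28, of which *itr2*, at 11479, 14105 and 14742 in *ecl123*Δ against 27976, 29099 and 29398 in the WT, and *fah1*, annotated as an acetamidase (-1.28), were called, with *psd2* (-0.81) and *cho1* (-0.40) of phospholipid synthesis. The triacylglycerol lipase gene *ptl1* was higher (0.52). In the fit without *ecl123*Δ replicate 3, 8 lipid genes were lower and 2 higher, and the list median was -0.17, against 0.01 with it. In ergosterol synthesis *erg1*, the squalene monooxygenase gene, was lower (-1.18) and the other 29 members did not pass, whereas 7 of the 30 were lower without *ecl123*Δ replicate 3. Among genes of the cell cycle, *cnp3*, which encodes a centromere protein, was lower, with 4128, 5604 and 3954 in *ecl123*Δ against 10604, 11347 and 10834 in the WT (-1.26). It alone passed among 26 cell cycle genes, where 5 were lower without *ecl123*Δ replicate 3 and the median was -0.07, against 0.05 with it.

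Further called coding genes came from several lists or from none. Among higher ones, SPBC1289.14, annotated as adducin, had normalized read counts of 392, 130 and 221 in *ecl123*Δ against 52.4, 48.2 and 61.0 in the WT (log2 fold change 2.19, edgeR adjusted p = 0.0238). A second adducin gene, *mug14*, was at 1.19. SPAC11D3.09, annotated as an agmatinase, was at 1.23, SPAC9G1.14, uncharacterized, at 1.22, SPBC530.07c of the TENA/THI family at 1.07, the transporter gene SPBC887.17 at 1.04 and SPAC3G6.05 of the Mpv17/PMP22 family at 1.00. Among lower ones, *mde6*, which encodes a muskelin, had 1010, 776 and 1121 in *ecl123*Δ against 2932, 3802 and 4186 in the WT (-1.91, adjusted p = 0.00171). The meiosis-upregulated gene *mug133* was at -1.97, *meu27* at -1.75 and SPBC19C7.04c, uncharacterized, at -1.84. SPAC13C5.05c, annotated as an N-acetylglucosamine-phosphate mutase, had 2274, 2285 and 2212 against 6113, 6905 and 7342 (-1.59). Other lower called genes included SPCC330.03c, a cytochrome b5 reductase gene (-1.63), SPBC15C4.06c, a ubiquitin ligase gene (-1.41), *pmp31* (-1.36), *cmt1* (-1.17), *tvp15* (-1.17) and *fmc1* (-1.15). With them were *cpy1*, the vacuolar carboxypeptidase Y gene (-1.07), *sry1*, the serine racemase gene (-1.06), and *gyp7* (-1.03). Uncharacterized lower called genes included SPCC584.16c (-1.59), SPAC1952.04c (-1.46), SPCC4F11.05 (-1.36) and SPAC922.09 (-1.34). SPAC18B11.03c, annotated as an N-acetyltransferase, was at -1.31 and SPAC4C5.03, a membrane protein gene, at -1.03. Of 107 genes with *mug* or *meu* names, given for upregulation in meiosis, 2 were higher and 8 lower with a median of -0.05, and without *ecl123*Δ replicate 3, 5 were higher and 15 lower.

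Further lists showed few passing genes. Of 16 cAMP and glucose sensing genes, *gpa2*, the G protein gene of glucose sensing, was higher (0.57) and *cgs1* lower, and 2 were higher and 4 lower without *ecl123*Δ replicate 3. Among 27 genes of TOR, AMPK and nutrient signalling none passed in edgeR with all 6 libraries or in DESeq2, 1 had an unadjusted p under 0.05, and 3 were lower without replicate 3. Of 56 translation factor genes, 1 was higher and 1 lower, or 7 and 3 without it. Among 174 genes annotated as dehydrogenases or reductases, 8 were higher and 6 lower, against 26 and 13 without it. Of 63 ubiquitin ligase and F-box genes, SPBC15C4.06c and *pof9* were lower, and 4 were lower without replicate 3. There the list median was -0.05 rather than 0.04. All coding genes gave 7.03% higher and 9.53% lower without replicate 3, against 1.82% and 3.64% with it. Shares of lower genes without it were 6.35%, 5.36% and 7.47% in the ubiquitin ligase, translation factor and dehydrogenase lists, below 9.53%. Those of the cAMP and TOR lists lay above 9.53%. Shares of higher genes lay above 7.03% in the cAMP, translation factor and dehydrogenase lists. These differences were not tested.

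The 3 called coding genes that fell farthest were among the outermost genes of the chromosomes. SPAC977.18 had normalized read counts of 17.2 to 80.4 in *ecl123*Δ and 1112 to 1860 in the WT, a log2 fold change of -5.36 (standard error 0.50, edgeR adjusted p = 0.00194). SPBPB2B2.18 had 1.92, 7.93 and 4.78 in *ecl123*Δ against 70.6, 383 and 267 in the WT (-5.62), and *ftm2*, which adjoins SPAC977.18, had 5.75, 9.06 and 3.82 against 119, 195 and 154 (-4.65). All 3 are uncertain as single genes, since the RefSeq genome repeats 84%, 94% and 75% of their 51-base windows. Of the 30 outermost coding genes at each end of chromosomes I and II, 60 of 120 had enough counts to be tested. Of these 60, 13, the deleted *ecl3* included, were lower and 2 higher (21.7% and 3.33%), where all coding genes gave 3.64% and 1.82%. The low-count filter keeps a gene with enough counts in the libraries of either strain. Through their WT libraries alone, *ftm2*, SPBPB2B2.18 and *ecl3* passed it, so they could be counted only as lower. The difference between these shares was not tested. The other lower ones included *yhb1*, *sul2*, *fub2* (-2.23), *cmt2* (-2.25), SPBPB21E7.08 (-1.81), *fah1* and, beside *ecl3*, *pho84*. The higher ones were *nrg1*, next to *fub2*, and SPBPB2B2.05, annotated as a glutamine amidotransferase, with 206, 131 and 177 in *ecl123*Δ against 47.0, 43.4 and 33.3 in the WT (2.06). Outside this list, SPCC737.04, uncharacterized, had 400, 162 and 439 against 2261, 3002 and 3487 (-3.12), and SPAPB24D3.07c 5232, 6884 and 5234 against 22151, 30272 and 30142 (-2.25).

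Noncoding genes were read apart from coding ones. Whether counting used strand is not given in the sources used here, so a noncoding gene that overlaps a coding gene on the other strand cannot be told apart from it with certainty. Where the overlap is on the same strand, this holds whatever the setting. The called gene that rose farthest, SPNCRNA.1400, had normalized read counts of 1302, 1643 and 1258 in *ecl123*Δ and 108, 80.8 and 133 in the WT, a log2 fold change of 3.69 (standard error 0.19, edgeR adjusted p = 0.000344). It flanks *ecl2* on the opposite strand. SPNCRNA.1371, antisense to *rsn1*, had 738, 587 and 475 against 173, 169 and 126 (1.95) while *rsn1* itself averaged 501 in *ecl123*Δ and 1048 in the WT without passing (-1.06, adjusted p = 0.0995). The other higher ones were SPNCRNA.293 (1.82), SPNCRNA.605 (1.62), SPNCRNA.1211 (1.40), SPNCRNA.1271 (1.39), SPNCRNA.1253 (1.13) and SPNCRNA.630 (1.02).

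Among lower noncoding genes, SPNCRNA.1378 had normalized read counts of 183, 216 and 134 in *ecl123*Δ and 1612, 2196 and 2620 in the WT, a log2 fold change of -3.60 (standard error 0.22, edgeR adjusted p = 0.000550), yet *ndi1*, *cbp6* and *rba50*, which overlap it, lay between -0.11 and 0.21. SPNCRNA.1470 had 76.6, 29.5 and 49.7 against 438, 736 and 750 (-3.61), and its flanking gene *pof9*, for an F-box protein, was lower as well (-1.50). SPNCRNA.691, antisense to *atg22*, was at -2.78, SPNCRNA.1085 at -2.40, SPNCRNA.1554 at -2.23, SPNCRNA.684 at -1.80, SPNCRNA.995 at -1.74, SPNCRNA.1318 at -1.69, SPNCRNA.67 at -1.66 and SPNCRNA.1252 at -1.63. Beside genes already described lay SPNCRNA.684 and SPNCRNA.685 (-1.49) at *prz1*, SPNCRNA.1534 (-1.49) at *mam1*, *prl58* (-1.26) at *itr2* and SPNCRNA.1622 (-1.37), antisense to *zrt1*. The RNA *rse1*, annotated as a cis-acting repressor of *ste11*, was lower together with *ste11*, with 2975, 2255 and 3028 in *ecl123*Δ against 5185, 5698 and 5777 in the WT (-1.01, adjusted p = 0.00587).

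Of the 37 called noncoding genes, 29 overlap a coding gene. An overlapping or flanking coding gene had moved the same way by adjusted p for 15 of them (40.5%) and the opposite way for 2. Among 1162 noncoding genes that were not called, 826 overlap a coding gene, so overlap was common in both sets. Of these 1162, a same-way neighbour was found for 124 (10.7%) and an opposite one for 84. The 2 opposite cases were SPNCRNA.1253, higher across from the lower *imt2*, and SPNCRNA.995. The latter was lower beside the higher SPAC27D7.09c and overlaps the higher SPAC27D7.11c on the same strand. The difference between these shares was not tested.

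**Figure D4:**
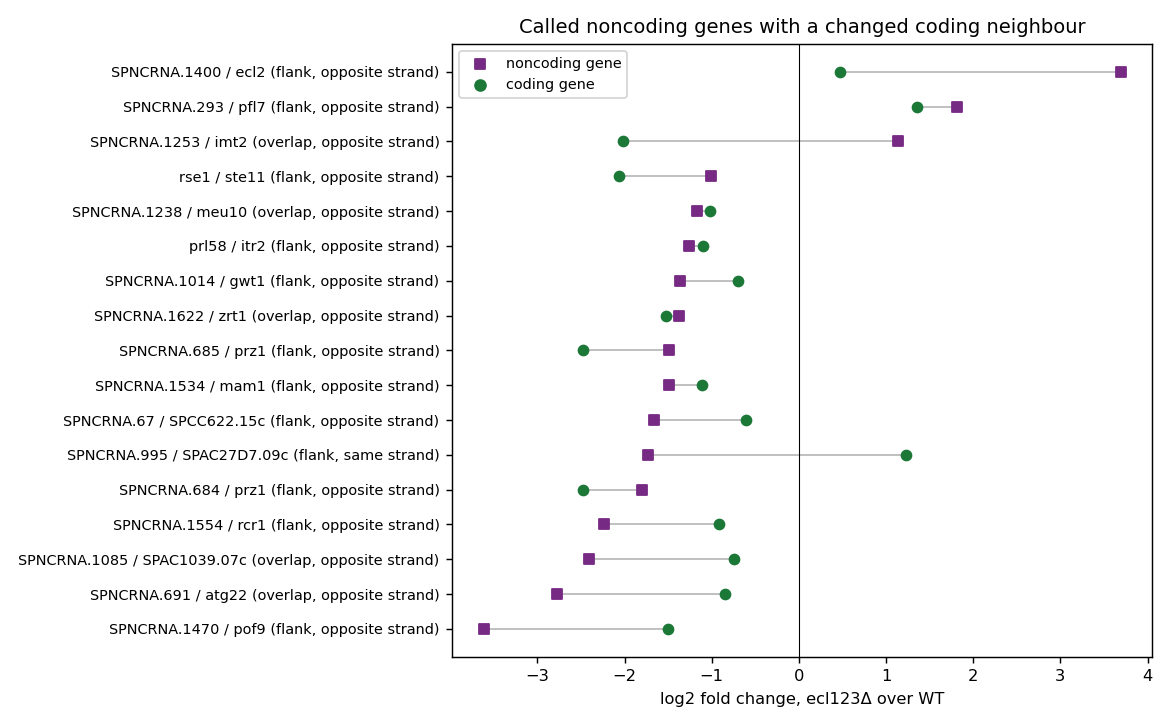
Log2 fold change of *ecl123*Δ over WT for the 17 called noncoding genes (purple squares) that have an overlapping or flanking coding gene past an adjusted p of 0.05, joined to the coding gene of smallest p (green circles). In 15 pairs both lie on the same side of 0, and in the SPNCRNA.1253 and *imt2* pair they lie at 1.13 and -2.02.

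How many genes were called depended on single libraries, in the direction of higher genes most. Leaving out 1 library at a time gave 44 to 72 lower and 7 to 45 higher coding genes, and 9 to 31 lower and 2 to 18 higher noncoding genes. The most higher coding genes, 45, came without *ecl123*Δ replicate 2, and the most higher noncoding genes, 18, without *ecl123*Δ replicate 3. Without WT replicate 3 the counts of higher and lower coding genes were 7 and 44. Each of *ste11*, *spk1*, *mam2*, *mfm1*, *gpa1*, *ncs1*, *yhb1*, *zrt1*, *itr2*, *vht1*, SPAC1039.02 and SPBC23G7.13c passed in all 15 alternative fits. These fits count a planned setting that proved to be the same as the reported fit.

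**Figure D5:**
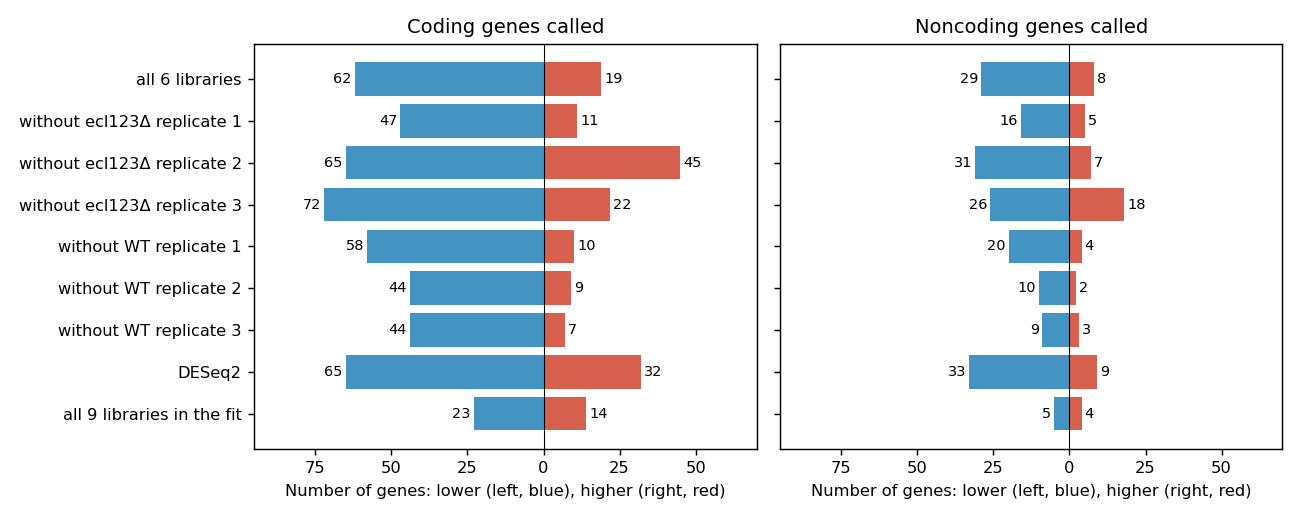
Numbers of coding (left) and noncoding (right) genes called lower (blue, drawn to the left) and higher (red, drawn to the right) in *ecl123*Δ with all 6 libraries, with each library left out in turn, with DESeq2 and with all 9 libraries of the series in the fit. Lower coding genes stay between 44 and 72 with a library left out and fall to 23 in the fit of 9 libraries.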

How the data were processed

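Poly(A)+ RNA-seq libraries of 3 biological replicates each of *ecl123*Δ and WT were compared; 3 *ecl3*Δ libraries entered 1 alternative only. The authors mapped stranded paired reads of 51 bases with HISAT2 2.1.0 to ASM294v2 and counted reads per gene over exons with HTSeq 0.10.0. The deposited table holds raw counts for 6988 genes; 0 per-sample columns were left out. The authors' DESeq2 tables hold their own fold changes and p-values and were not used.

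Genes passing filterByExpr (6213: 5004 coding, 1209 noncoding, split by systematic ID) were normalized (TMM) and fitted by quasi-likelihood in edgeR 4.0.16 (limma 3.58.1, R 4.3.3) on the 6 libraries alone. Normalized read counts are counts scaled to the mean effective library size. Names, gene order and repeated sequence came from RefSeq ASM294v3 (6836 IDs matched), another build, so no coordinates are given. Gene lists, the naming rule and limits were chosen with earlier results of these data known. A few wrong list keys were corrected once the table was opened, without regard to values. Named were the *ecl* genes, called coding genes (up to 20 per direction by size) and noncoding genes (up to 10), list members called or of smallest p, the 9 mating genes, *pho1*, *pho84*, *tgp1* and coding neighbours. Further called genes were named after their values were seen. Alternatives were DESeq2 1.42.0, RLE, plain library size, no count filter, no minimum of 100, all 9 libraries, the replicate number as a block, a 1.5-fold limit, glmTreat, the legacy setting of glmQLFit and each library left out. The functions were tested on simulated data.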

Additional observations from a re-analysis of the deposited data

How the results depend on the processing

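The counts of called genes were recomputed under each alternative. Scaling by RLE or by library size, dropping the count filter or the minimum of 100, and adding the replicate block left all 4 counts within 1.5 times those reported. The planned legacy setting of glmQLFit proved to be the default and gave the same fit, and the opposite setting, added after seeing the data, also stayed within that range. DESeq2 called 32 higher coding genes. The limit of 1.5-fold gave 39 higher and 138 lower coding and 17 higher noncoding genes. The test against 1.5-fold gave 6 higher coding, 3 higher noncoding and 11 lower noncoding genes. With all 9 libraries in the fit, 23 coding genes were lower, 4 noncoding genes higher and 5 lower; there 72 of the 118 called genes missed the adjusted p. Leaving out each library gave 7 to 45 higher and 44 to 72 lower coding genes, and 2 to 18 higher and 9 to 31 lower noncoding genes. Of the 118, between 68 and 118 stayed past the adjusted p without 1 library. No called gene changed sign in any alternative. Same-numbered replicates did not deviate together (correlations -0.16, 0.22 and -0.31), so the numbers were not taken as pairs; with the replicate number as a block the calls were 14 higher and 58 lower coding and 6 higher and 21 lower noncoding genes. The cause of these shifts was not tested. Counts of 1 to 80 reads, as at *ecl3*, limit what can be said of weakly expressed genes.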
